A study of Homo sapiens with 16 samples.

Results

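OAS2, PSMB9, SP110 and SAMHD1 are human genes that interferons are known to induce, and every probe set listed for 1 of them alone was followed here. A probe set is a group of short array probes that together read 1 transcript or part of it. These were 9 probe sets of the 9554 in the table: 1 each for OAS2, PSMB9 and SP110, and 6 for SAMHD1. All 9 entered the tests, with no filter on low values, and none of the 252 probe sets listed for several genes held a member.

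The cells were AsPC-1, an established line from a human pancreatic adenocarcinoma, grown in RPMI medium with fetal calf serum in every group and read on 16 one-colour Affymetrix arrays. In the drug experiment they received 10 µM ICG-001 for 6 h or 24 h, or the vehicle DMSO for the same times, with 3 arrays in each of these 4 groups. ICG-001 is an inhibitor known to bind CBP, a coactivator, and so to keep β-catenin from it. In a separate experiment the cells were transfected, with lipofectamine, with 20 nM CTNNB1 siRNA (against the transcript of β-catenin) or 20 nM control siRNA, and RNA was taken at 48 h, with 2 arrays in each group. The labels name biological replicates but no separate cultures, so p-values measure the spread between these arrays, which may be technical. CTNNB1 itself was not analysed here, so the knockdown was not checked on its target. No group was labelled as given interferon, and all groups come from 1 cell line.

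Interferons are secreted proteins that act through cell-surface receptors and JAK kinases. Type I and type III interferons act with IRF9 on promoter sequences called ISREs, whereas interferon gamma acts on sequences called GAS, and IRF1 and NLRC5 carry part of that signal to the antigen-presentation genes. The 4 genes serve different ends of the response. OAS2 makes oligoadenylates on double-stranded RNA, which activate RNase L. PSMB9 is a catalytic subunit of the immunoproteasome, the proteasome form that cuts proteins into peptides for MHC class I. SP110 is a nuclear body protein of the SP100 family with chromatin-reading domains, and SAMHD1 hydrolyses dNTPs and restricts retroviruses in myeloid cells.

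The RefSeq promoters of 3 of the 4 genes (not OAS2) matched by symbol (GRCh38.p14, 250 bases before to 50 after the annotated start). They are shown because the 3 genes share their link to interferon while their probe sets moved differently. The promoter of IFIT1 is added, an interferon target that was lower with ICG-001 at both times. Motifs were searched on both strands and were chosen after these sequences had been read. Capitals mark GGGCGG in PSMB9, GAAANNNGAAA in SP110, and GAAANNGAAA and GAAANNNGAAA in IFIT1, on either strand, while SAMHD1 held none of the 5 motifs searched in this window.
PSMB9, chr6:32853942-32854241, plus strand: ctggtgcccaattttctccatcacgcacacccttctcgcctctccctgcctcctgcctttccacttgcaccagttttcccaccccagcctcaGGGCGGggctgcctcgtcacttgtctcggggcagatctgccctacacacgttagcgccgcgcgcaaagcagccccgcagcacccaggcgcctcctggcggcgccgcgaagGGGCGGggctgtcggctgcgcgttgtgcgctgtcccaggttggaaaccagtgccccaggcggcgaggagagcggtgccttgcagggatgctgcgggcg
SP110 (first of its promoters), chr2:230225587-230225886, minus strand: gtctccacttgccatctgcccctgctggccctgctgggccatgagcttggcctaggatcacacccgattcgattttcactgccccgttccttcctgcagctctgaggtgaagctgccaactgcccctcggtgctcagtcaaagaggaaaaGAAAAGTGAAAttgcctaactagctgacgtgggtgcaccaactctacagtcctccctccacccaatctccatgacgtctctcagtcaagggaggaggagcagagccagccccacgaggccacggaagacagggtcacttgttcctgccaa
SAMHD1, chr20:36951659-36951958, minus strand: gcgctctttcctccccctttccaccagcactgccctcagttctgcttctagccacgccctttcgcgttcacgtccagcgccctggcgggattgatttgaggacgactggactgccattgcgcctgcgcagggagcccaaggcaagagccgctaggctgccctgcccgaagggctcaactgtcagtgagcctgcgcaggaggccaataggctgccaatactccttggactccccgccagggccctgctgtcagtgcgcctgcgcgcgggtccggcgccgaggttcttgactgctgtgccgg
IFIT1, chr10:89392373-89392672, plus strand: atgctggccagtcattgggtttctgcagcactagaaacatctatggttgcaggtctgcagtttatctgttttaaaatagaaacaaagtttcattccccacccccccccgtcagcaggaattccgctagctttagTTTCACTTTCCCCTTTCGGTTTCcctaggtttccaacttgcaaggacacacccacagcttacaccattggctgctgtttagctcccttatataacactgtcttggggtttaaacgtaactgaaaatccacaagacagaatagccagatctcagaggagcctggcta

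The core of the ISRE, GAAANNGAAA, was present in 3.57% of the 35116 promoters in the RefSeq table. It occurred at 2 places in IFIT1, at -116 and -103 counted from the start site on the reverse strand, with a GAAANNNGAAA match between and overlapping both at -110. The first SP110 promoter held a match to GAAANNNGAAA, the same half-sites 1 base further apart, at -100, a motif found in 2.86% of promoters. Another SP110 promoter held that motif at -51 and a GAS match, TTCNNNGAA, at -38 (7.66% of promoters). PSMB9 held GC boxes, GGGCGG, at -158 and -48 (45% of promoters). Some promoters that are not shown were searched too. IRF9, which was higher with ICG-001, held a GAS match at -63 and GC boxes at -4 and 12. TAP1 held the ISRE core at -134 and -128 and a GC box at -55 in its first promoter. Its second promoter held a GAS match at -189, a GC box at -12 and the TCF core named next at -226. Whether these motifs go with the direction of change was not tested. The core of the TCF motif through which β-catenin acts, ATCAAAG, was in 2.62% of promoters and in none of the windows shown. These matches are letters in a window and do not show that a factor bound there.

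The deposited values are intensities on a linear scale. Tests used log2 of intensity plus 16 after quantile normalization, which gives all arrays 1 common distribution, and fold changes below are differences on that scale. A probe set was called at an adjusted p under 0.05 (limma, Benjamini-Hochberg over all 9554 probe sets). The printed intensities are the deposited ones. The median intensity was 20.6 to 28.6 on the drug arrays and 12.7 to 13.05 on the siRNA arrays. Arrays of the same group correlated at 0.959 to 0.985 over all probe sets, arrays of different drug groups at 0.937 to 0.977, and 1 array of each experiment at only 0.707 to 0.750. Every probe set in the table varied over these 16 arrays, so these ranges may differ from those over a full array. The experiments also differ in time and in transfection, and these cannot be told apart. Of the listed markers of a duct epithelium, 8 of 18 were measured, with a summed intensity of 9042.4 to 9441.1 with ICG-001 and 8003.7 to 8109.1 with DMSO at 6 h. At 24 h the sums were 9333.2 to 9581.7 with ICG-001 and 6648.2 to 7413.0 with DMSO, and at 48 h they were 2501.7 to 2640.5 with CTNNB1 siRNA and 2483.6 to 2974.3 with control siRNA. These are sums of deposited intensities, and the arrays differed in brightness. The mean intensity of an array at 6 h was 163.7 to 165.1 with ICG-001 and 131.7 to 136.5 with DMSO. At 24 h it was 171.3 to 178.9 and 134.7 to 136.8, and it was 105.5 to 109.6 on the siRNA arrays. A difference between sums thus does not measure the markers alone. The members of the epithelial list moved both ways: 1 was called higher and 2 lower with ICG-001 at 6 h, 2 higher and 2 lower at 24 h, and 1 higher and 1 lower with CTNNB1 siRNA. Over all 5250 genes, by the brightest probe set of each, 5.31% were called higher and 7.85% lower at 6 h, 8.95% and 10.8% at 24 h, and 5.64% and 5.47% with CTNNB1 siRNA. The keratin KRT7 changed by -1.35 ± 0.09 with ICG-001 at 24 h (adjusted p = 3.56e-10) and by 1.06 ± 0.11 with CTNNB1 siRNA (adjusted p = 1.71e-06), and the claudin CLDN7 by 0.34 ± 0.05 (adjusted p = 6.23e-05) and -0.65 ± 0.07 (adjusted p = 1.13e-06). With ICG-001 at 6 h KRT7 changed by -0.59 ± 0.09 (adjusted p = 6.49e-05) and CLDN7 by 0.37 ± 0.05 (adjusted p = 3.87e-05). The KRT7 call at 6 h ended under the deposited scaling (-0.21, adjusted p = 0.196). TFF1 changed by -0.39 ± 0.12 at 6 h (adjusted p = 0.0416) and 0.40 ± 0.12 at 24 h (adjusted p = 0.0252). These calls ended in 14 and 7 of 26 alternatives. MUC1 changed by -0.28 ± 0.08 at 24 h (adjusted p = 0.0189), or 0.13 under the deposited scaling (adjusted p = 0.311). The part of these markers in the results below was not tested. For leukocytes, which express many interferon genes, 3 of 18 markers were measured (PTPRC, MS4A1 and CD79A), and they summed to between 17.1 and 50.6 on every array. None of these 3, of 6 fibroblast markers or of 3 endothelial markers was called in the 3 main comparisons, and no acinar or islet marker was measured. For fibroblast markers this depended on the setting. POSTN passed with ICG-001 at 24 h under the deposited scaling (0.56, adjusted p = 0.0242) and without the intensity trend (adjusted p = 0.0271). With CTNNB1 siRNA ACTA2 passed under the deposited scaling (0.46, adjusted p = 0.0291), and DCN changed by 1.05 without control siRNA replicate 1 against 0.40 in the main fit. In every group at least 2 of the 3 leukocyte markers and 2 of the 3 endothelial markers averaged under 16. With so few markers and the shares given above, the absence of calls says little. In a bulk sample of cells, fewer cells of a kind and less RNA per cell cannot be told apart.

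With ICG-001, 4 of the 9 probe sets were lower at 6 h and none was higher, while 9.99% of all probe sets were called (4.53% higher, 5.45% lower). At 24 h 7 of 9 were called, with 2 higher and 5 lower, beside 15.7% of all (7.88% higher, 7.82% lower). With CTNNB1 siRNA 3 of 9 were called, with 1 higher and 2 lower, beside 9.25% of all (4.50% higher, 4.75% lower). Since 6 of the 9 belong to SAMHD1 and 3 of these move together, the counts are not counts of independent genes. The members were also chosen with earlier results of these data known. The shares of all probe sets, here and below, are thus a background and not a test of the members. By the brightest probe set of each gene, 1 of 4 genes was called at 6 h (PSMB9, lower) and 3 at 24 h (PSMB9 and SAMHD1 higher, OAS2 lower). Over all 5250 genes counted that way, 5.31% were called higher and 7.85% lower at 6 h, and 8.95% and 10.8% at 24 h. SAMHD1 enters this count only through its brightest probe set, while 4 of its other probe sets were called lower at 24 h.

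**Figure D1:**
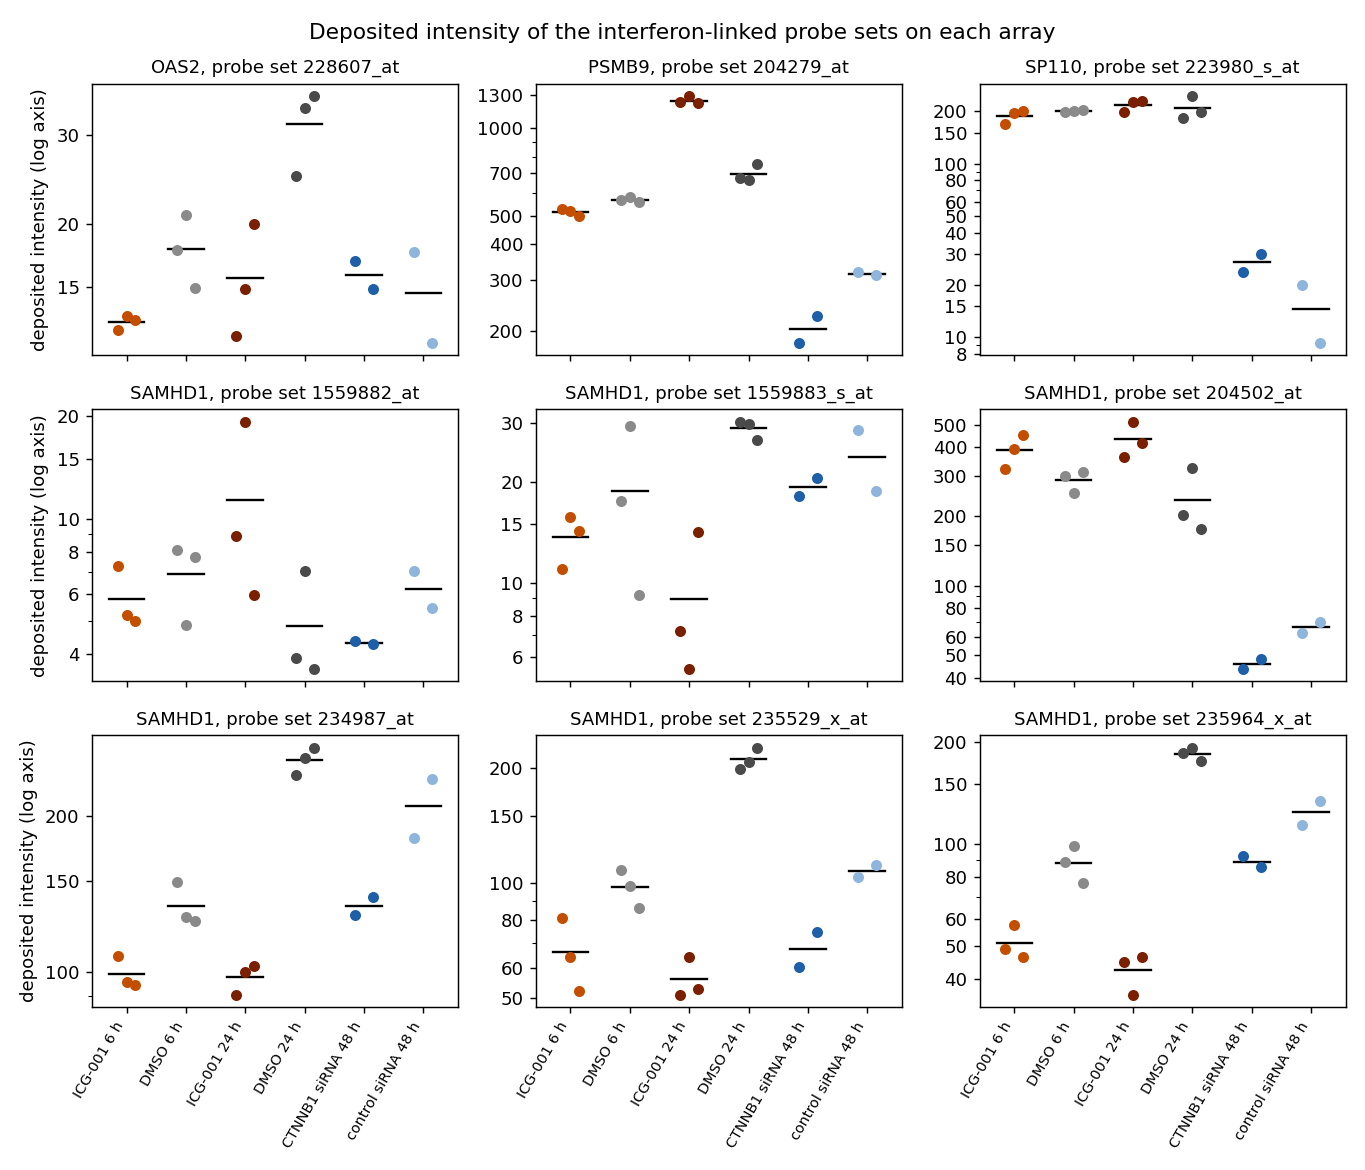
Deposited intensity (log axis) of each of the 9 probe sets on each array, by group, with a bar at the group mean (3 arrays a group for the drug, 2 for siRNA). PSMB9 stands highest with ICG-001 at 24 h, SP110 drops to between 9.23 and 30.1 on the siRNA arrays, and 3 SAMHD1 probe sets are lowest with ICG-001 while 204502_at is highest with it.

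PSMB9 turned direction between the times. Its probe set 204279_at read, at 6 h, 527.2, 518.2 and 499.7 with ICG-001, against 565.1, 582.6 and 557.0 with DMSO. The 24 h values were 1229.7, 1293.9 and 1220.0 with ICG-001, against 676.8, 664.5 and 753.3 with DMSO. The groups did not overlap at either time, and the 24 h ICG-001 arrays were the brightest of all 16. The log2 change was -0.34 ± 0.08 at 6 h (SE, adjusted p = 0.00582) and 0.49 ± 0.08 at 24 h (adjusted p = 7.95e-05). The 6 h call ended under the deposited scaling (-0.14, adjusted p = 0.405), under median centring (-0.15, adjusted p = 0.448) and without the intensity trend (adjusted p = 0.0733). The 24 h change was larger under the deposited scaling, at 0.83 (adjusted p = 1.47e-08), where the median of all probe sets stood at 0.10 and not at -0.01. The mean intensity of an array was 163.7 to 178.9 with ICG-001 and 131.7 to 136.8 with DMSO, and its part in the gap between scalings was not tested.

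PSMB9 rose with time under ICG-001, by 1.10 ± 0.08 on the log2 scale (24 h minus 6 h, adjusted p = 3.32e-09). It was the only 1 of the 9 probe sets called in that comparison (13.2% of all were, 6.97% higher and 6.20% lower). With DMSO the same difference was 0.27 ± 0.08 (adjusted p = 0.0519), and it passed in 10 of 26 alternatives, among them the deposited scaling (0.29, adjusted p = 0.0193). The effect of ICG-001 at 24 h exceeded that at 6 h by 0.83 ± 0.11 (adjusted p = 5.94e-05). CTNNB1 siRNA gave the opposite sign to the 24 h drug effect. PSMB9 read 182.4 and 226.2 with CTNNB1 siRNA, against 319.0 and 313.7 with control siRNA, without overlap, a log2 change of -0.53 ± 0.10 (adjusted p = 0.00107). The 24 h drug effect minus the siRNA effect was 1.02 ± 0.13 (adjusted p = 5.81e-06). In order of level the 6 groups ran ICG-001 24 h, DMSO 24 h, DMSO 6 h, ICG-001 6 h, control siRNA and CTNNB1 siRNA, with mean log2 values of 10.02, 9.53, 9.26, 8.93, 8.61 and 8.08, and no neighbours in that order overlapped.

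SAMHD1 fell with ICG-001 at both times by 3 of its bright probe sets and rose at 24 h by another. Probe set 235964_x_at read 49.1, 57.9 and 46.4 with ICG-001 at 6 h, against 88.8, 99.0 and 77.0 with DMSO. At 24 h it read 44.9, 36.1 and 46.6 with ICG-001, against 185.5, 192.3 and 175.3 with DMSO. The groups did not overlap at either time, and the DMSO arrays were higher at 24 h than at 6 h. The log2 change was -0.65 ± 0.13 at 6 h (adjusted p = 0.00125) and -1.94 ± 0.13 at 24 h (adjusted p = 4.13e-10).

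Probe set 235529_x_at read 81.3, 64.2 and 52.4 with ICG-001 at 6 h, against 108.2, 98.5 and 86.1 with DMSO. After 24 h it read 51.2, 64.1 and 53.0 with ICG-001, against 198.7, 207.9 and 226.7 with DMSO. Every ICG-001 array lay under every DMSO array of its time, with changes of -0.53 ± 0.14 at 6 h (adjusted p = 0.0113) and -1.85 ± 0.14 at 24 h (adjusted p = 1.44e-09). The 6 h call ended without replicate 3 of ICG-001 (-0.41, adjusted p = 0.0962) and also without replicate 1 of DMSO (-0.46, adjusted p = 0.0786).

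Probe set 234987_at read 107.4, 95.7 and 94.4 with ICG-001 at 6 h, against 149.2, 127.7 and 125.4 with DMSO. At 24 h it read 90.6, 100.3 and 102.9 with ICG-001, against 239.5, 258.0 and 270.6 with DMSO. Again there was no overlap at either time. The change was -0.46 ± 0.11 at 6 h (adjusted p = 0.00832), which ended without replicate 1 of DMSO (-0.39, adjusted p = 0.0674), and -1.46 ± 0.11 at 24 h (adjusted p = 3.2e-09).

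These 3 probe sets shared a rise with time in the vehicle. The DMSO difference, 24 h minus 6 h, was 0.91 ± 0.11 for 234987_at (adjusted p = 1.29e-05), 1.06 ± 0.14 for 235529_x_at (adjusted p = 1.91e-05) and 0.99 ± 0.13 for 235964_x_at (adjusted p = 2.87e-05). They were the 3 of 9 probe sets called in that comparison, all higher, beside 6.13% of all (3.43% higher, 2.70% lower). None of them was called between the times under ICG-001. The effect at 24 h minus that at 6 h was -1.0 ± 0.16 for 234987_at, -1.32 ± 0.19 for 235529_x_at and -1.29 ± 0.18 for 235964_x_at (adjusted p between 0.000104 and 0.000306). With PSMB9 they made 4 of 9 probe sets called for that difference, 1 higher and 3 lower, beside 5.62% of all (2.89% higher, 2.73% lower).

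The probe set 204502_at, which is listed with the RefSeq transcript of SAMHD1, gave the opposite sign with the drug. It read 320.1, 392.8 and 449.6 with ICG-001 at 6 h, against 298.7, 254.0 and 312.7 with DMSO. The later readings were 363.3, 514.4 and 418.4 with ICG-001, against 203.8, 324.5 and 175.8 with DMSO. ICG-001 arrays were higher at both times without overlap in deposited intensity, although after normalization the groups overlapped at both times. The change was 0.31 ± 0.18 at 6 h (adjusted p = 0.472) and 0.73 ± 0.18 at 24 h (adjusted p = 0.00467). Between the DMSO times its difference of -0.39 ± 0.18 was not called (adjusted p = 0.321), but it passed without DMSO 24 h replicate 2, the highest of those arrays (-0.66, adjusted p = 0.00868).

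**Figure D2:**
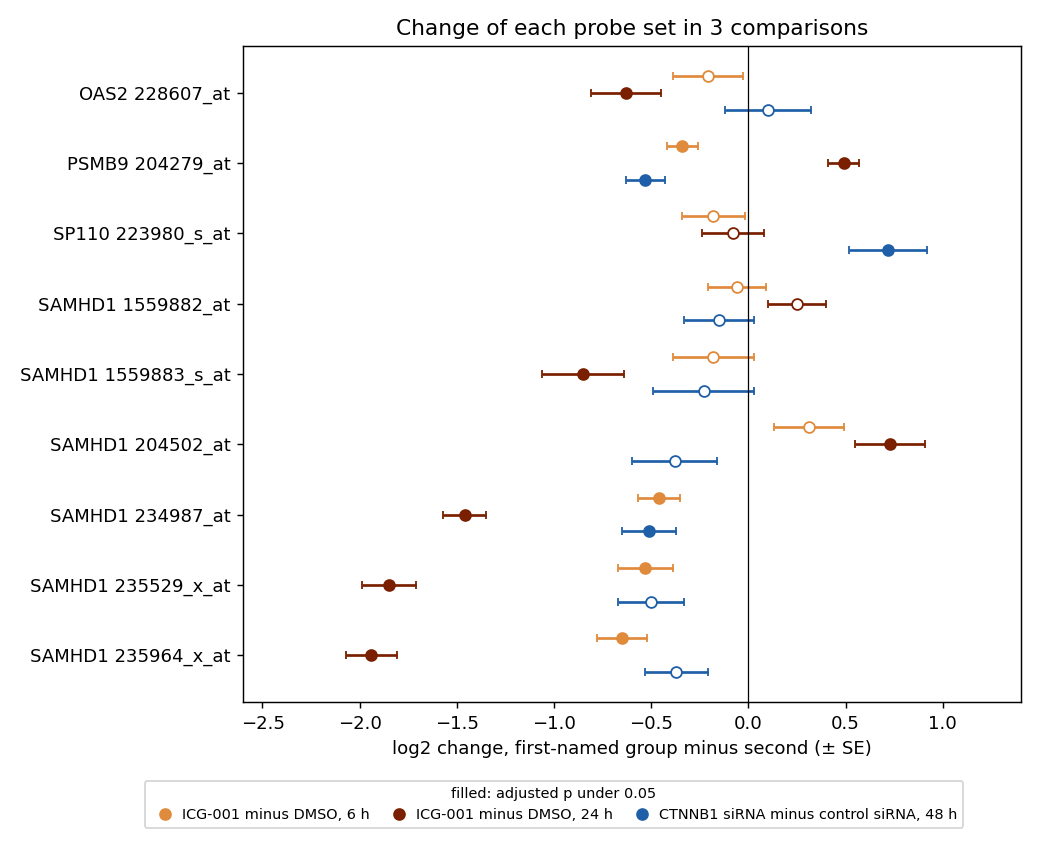
Log2 change with its SE for each of the 9 probe sets, as ICG-001 minus DMSO at 6 h and 24 h and CTNNB1 siRNA minus control siRNA at 48 h, with filled points at an adjusted p under 0.05. At 24 h the SAMHD1 points run from -1.94 for 235964_x_at to 0.73 for 204502_at, and PSMB9 changes sign between 6 h and 24 h.

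The disagreement within SAMHD1 was measured on each array as the log2 value of 204502_at minus the mean of the 3 falling ones, which are the next brightest. It was 1.95, 2.32 and 2.67 with ICG-001 at 6 h, against 1.38, 1.25 and 1.74 with DMSO, and 2.32, 2.85 and 2.51 with ICG-001 at 24 h, against -0.01, 0.60 and -0.36 with DMSO. Both times separated the groups, by 0.86 at 6 h and 2.48 at 24 h. These values are a description without a test, since the probe sets were set against each other with their opposite signs already known.

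**Figure D3:**
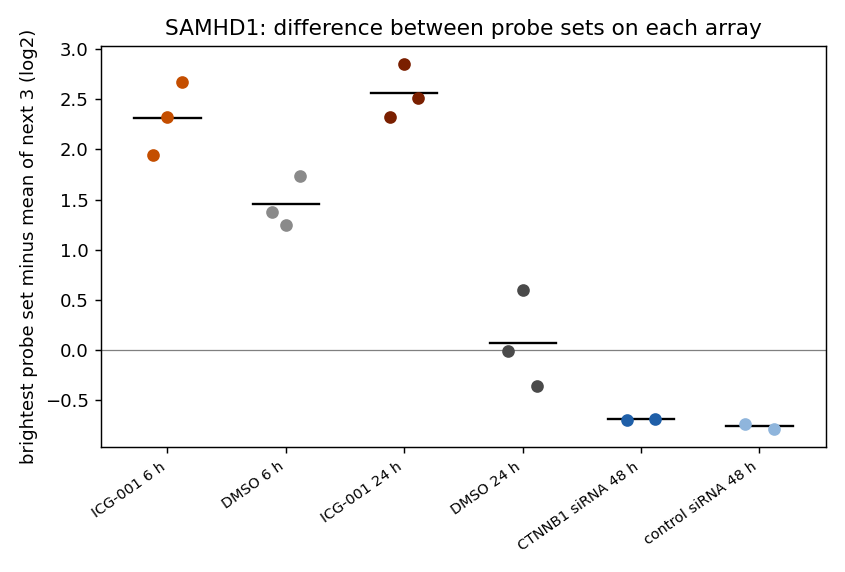
Log2 value of the brightest SAMHD1 probe set, 204502_at, minus the mean of the 3 next brightest, 234987_at, 235529_x_at and 235964_x_at, on each array, with a bar at the group mean. The 3 arrays with ICG-001 lie above the 3 with DMSO at both times, while the siRNA groups lie at -0.69 and -0.68 with CTNNB1 siRNA and -0.73 and -0.78 with control siRNA.

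Over the 16 arrays the 3 falling probe sets correlated with each other at 0.948 to 0.970, and 204502_at correlated with them at -0.605 to -0.750. The arrays of a group share their treatment, so these are descriptions. The 3 are listed with other GenBank records or with none, names ending in _x_at mark probes that may also match other sequences, and where the probes lie on the transcript was not analysed here. Which probe set follows SAMHD1 mRNA was not tested.

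Of the dim SAMHD1 probe sets, 1559883_s_at read 11.1, 15.8 and 14.3 with ICG-001 at 6 h, against 17.6, 29.5 and 9.24 with DMSO, and the groups overlapped. The 24 h readings were 7.2, 5.55 and 14.2 with ICG-001, against 30.3, 29.9 and 26.6 with DMSO, with no overlap. Only the 24 h change was called, at -0.85 ± 0.21 (adjusted p = 0.0058), and since 7 of the 16 arrays were under 16, its size depended on the number added before the log: -1.76 with 1 and -0.34 with 64. Probe set 1559882_at was under 16 on 15 of 16 arrays and was called in none of the comparisons.

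With CTNNB1 siRNA all 6 SAMHD1 probe sets had negative changes, and 1 was called. Probe set 234987_at read 129.0 and 139.6 with CTNNB1 siRNA, against 181.4 and 235.6 with control siRNA, a change of -0.51 ± 0.14 (adjusted p = 0.0238). That call ended when the siRNA arrays were fitted alone (adjusted p = 0.0672), without the intensity trend (adjusted p = 0.0546) and without control siRNA replicate 2 (-0.33, adjusted p = 0.235), CTNNB1 siRNA replicate 1 (-0.47, adjusted p = 0.0994) or CTNNB1 siRNA replicate 2 (-0.53, adjusted p = 0.0624). Probe set 235529_x_at read 60.4 and 74.7 with CTNNB1 siRNA and 103.7 and 111.6 with control siRNA, for a change of -0.50 ± 0.17 (adjusted p = 0.0679), and under the deposited scaling it passed at -0.57 (adjusted p = 0.0369). Probe set 235964_x_at read 92.2 and 85.6 with CTNNB1 siRNA and 114.1 and 134.0 with control siRNA, a change of -0.37 ± 0.16 (adjusted p = 0.171). Probe set 204502_at read 43.7 and 48.3 with CTNNB1 siRNA and 62.5 and 70.1 with control siRNA, a change of -0.38 ± 0.22 (adjusted p = 0.322). The 4 bright probe sets thus had the same sign here, but 3 of them move together and only 1 of the 4 was called. The same difference between 204502_at and the 3 others was 0.07 for CTNNB1 siRNA minus control siRNA.

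Both treatments can be set against each other only across experiments. The 24 h drug effect minus the siRNA effect was called for 6 of 9 probe sets, 2 higher and 4 lower, beside 12.7% of all (6.43% higher, 6.27% lower). It was 1.12 ± 0.28 for 204502_at (adjusted p = 0.00928), -0.95 ± 0.18 for 234987_at (adjusted p = 0.000719), -1.36 ± 0.21 for 235529_x_at (adjusted p = 0.000117) and -1.56 ± 0.21 for 235964_x_at (adjusted p = 1.39e-05). For SP110 it was -0.80 ± 0.25 (adjusted p = 0.0441), a call that ended in 17 of its alternatives. Agent, time and experiment differ together in each of these values.

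SP110 did not pass the test with ICG-001 at either time. Its probe set 223980_s_at read 169.2, 195.6 and 202.5 with ICG-001 at 6 h, against 198.7, 200.4 and 204.3 with DMSO. Its 24 h readings were 199.5, 228.2 and 228.9 with ICG-001, against 184.4, 245.6 and 198.6 with DMSO. The deposited intensities overlapped at both times (after normalization, at 24 h only), and the changes were -0.18 ± 0.16 (adjusted p = 0.787) and -0.08 ± 0.16 (adjusted p = 0.859).

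On the siRNA arrays SP110 was far dimmer, at 23.7 and 30.1 with CTNNB1 siRNA, against 19.9 and 9.23 with control siRNA. The control siRNA mean of 14.6 stood beside a mean of 205.3 over the DMSO arrays. A gap of at least 4-fold between control siRNA and DMSO was seen for 759 of the 9554 probe sets (7.94%), so SP110 was not alone in it. The table holds only probe sets that varied over these arrays, so that share may differ on a full array. Within the siRNA experiment SP110 was higher with CTNNB1 siRNA by 0.72 ± 0.20 (adjusted p = 0.0242). The call ended in 8 of 26 alternatives, among them the deposited scaling (0.51, adjusted p = 0.0648), the siRNA arrays fitted alone (adjusted p = 0.463), without control siRNA replicate 2 (0.31, adjusted p = 0.317) and without CTNNB1 siRNA replicate 2 (0.60, adjusted p = 0.148). Its size was 1.11 with 1 added before the log and 0.36 with 64.

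OAS2 was a dim probe set, with 8 of the 16 arrays under an intensity of 16, the number added before the log. Its probe set 228607_at read 12.4, 13.2 and 13.0 with ICG-001 at 6 h, against 17.8, 20.9 and 14.96 with DMSO. The 24 h values were 12.1, 14.9 and 20.1 with ICG-001, against 24.9, 34.0 and 35.8 with DMSO. The groups did not overlap at either time, but the 6 h change of -0.21 ± 0.18 was not called (adjusted p = 0.769). At 24 h OAS2 fell by 0.63 ± 0.18 on the log2 scale (adjusted p = 0.0174). The size was -1.12 with 1 added before the log and -0.27 with 64. The call ended without ICG-001 24 h replicate 1 (adjusted p = 0.0598) or 2 (adjusted p = 0.0717), or when replicate 2 (adjusted p = 0.068) or 3 (adjusted p = 0.0735) of DMSO at 24 h was left out.

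With siRNA OAS2 read 16.9 and 14.9 with CTNNB1 siRNA and 17.7 and 11.7 with control siRNA. The groups overlapped, and the change was 0.10 (adjusted p = 0.867). The DMSO arrays differed by 0.43 ± 0.18 between 24 h and 6 h, which was not called (adjusted p = 0.263). In order of level, each group of OAS2 overlapped its neighbour.

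Other genes of the interferon response were taken from 7 lists of 157 genes, 37 of which were measured. By the brightest probe set of each, 8 were higher and 5 lower with ICG-001 at 6 h, 9 higher and 2 lower at 24 h, and 5 higher and 3 lower with CTNNB1 siRNA. Over all 5250 genes, 5.31% were called higher and 7.85% lower at 6 h, 8.95% and 10.8% at 24 h, and 5.64% and 5.47% with siRNA. These shares are also the background for the counts of each list below. The median change of the 37 was 0.00 at 6 h, 0.04 at 24 h and 0.09 with siRNA, beside -0.02, -0.02 and 0.01 over all genes. The table holds only probe sets that varied over the 16 arrays, so the lists are seen in part. Of the genes named by their brightest probe set alone, SLFN5 has 4 probe sets, SP140L 3, and EPSTI1, WARS1, SOCS1, HLA-DPA1 and KRT7 2 each. Whether their other probe sets moved alike is not reported here.

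The ligand and receptor list had 3 measured genes. The interferon genes IFNE and IFNG were not called in any of the 3 comparisons, although IFNE passed at 24 h under the deposited scaling (0.60, adjusted p = 0.0258) and without ICG-001 24 h replicate 2 (0.59, adjusted p = 0.0489). IFNG averaged 12.2 with ICG-001 and 15.6 with DMSO at 24 h. IFNAR2, a chain of the type I interferon receptor, changed by -0.33 ± 0.08 at 6 h (adjusted p = 0.00398) and by -0.28 ± 0.08 at 24 h (adjusted p = 0.0125) with ICG-001. Under the deposited scaling its changes were -0.15 (adjusted p = 0.259) and -0.03 (adjusted p = 0.858), so neither call held there. The 24 h call also ended without replicate 2 of ICG-001 (-0.23, adjusted p = 0.0802) or of DMSO (-0.22, adjusted p = 0.0867).

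Both measured transcription factors of the pathway rose with the drug. IRF9, a DNA-binding factor of the type I interferon response, averaged 958.3 ± 17.2 with ICG-001 and 479.8 ± 16.4 with DMSO at 6 h (SD, n = 3 each). At 24 h it averaged 1256.0 ± 57.4 with ICG-001 and 527.6 ± 15.3 with DMSO. The changes were 0.69 ± 0.07 at 6 h (adjusted p = 1.21e-07) and 0.92 ± 0.07 at 24 h (adjusted p = 1.02e-09). With siRNA it averaged 454.7 with CTNNB1 siRNA and 280.8 with control siRNA, a change of 0.57 ± 0.08 (adjusted p = 7.07e-05). IRF9 was thus higher in all 3 comparisons. IRF7, which drives type I interferon genes, changed by 0.61 ± 0.09 at 6 h (adjusted p = 3.33e-05) and 0.93 ± 0.09 at 24 h (adjusted p = 6.98e-08). Its difference with CTNNB1 siRNA, 0.31 ± 0.11, was not called (adjusted p = 0.0864), but it passed without control siRNA replicate 1 (0.52, adjusted p = 0.00159).

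The effector genes went both ways. Of 11 measured, 2 rose and 2 fell at 6 h, 3 rose and 1 fell at 24 h, and 1 rose and 2 fell with CTNNB1 siRNA. IFIT1, which binds foreign RNA, averaged 362.3 ± 28.2 with ICG-001 and 497.7 ± 17.4 with DMSO at 6 h, and 565.0 ± 23.9 with ICG-001 and 950.0 ± 61.2 with DMSO at 24 h (SD, n = 3 each). It fell by 0.62 at 6 h (adjusted p = 8.55e-05) and by 1.04 at 24 h (adjusted p = 4.61e-08). Like the 3 falling SAMHD1 probe sets it was higher at 24 h than at 6 h in DMSO, by 0.93 ± 0.10 (adjusted p = 1.55e-06), but unlike them it was also higher with time under ICG-001, by 0.50 ± 0.10 (adjusted p = 0.000777). With CTNNB1 siRNA the IFIT1 change of -0.35 ± 0.12 was not called (adjusted p = 0.0687), but it passed in 3 of 26 alternatives. EIF2AK2, the kinase that stops translation on double-stranded RNA, changed by -0.54 ± 0.14 at 6 h (adjusted p = 0.0101), a call that ended without replicate 2 of ICG-001 (-0.45, adjusted p = 0.0803).

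The effectors that rose were TRIM25, the ubiquitin ligase of the RIG-I pathway, SLFN5 of the schlafen family, and EPSTI1. TRIM25 changed by 0.98 ± 0.09 at 6 h (adjusted p = 8.51e-08), by 0.59 ± 0.09 at 24 h (adjusted p = 4.74e-05) and by 0.42 ± 0.11 with CTNNB1 siRNA (adjusted p = 0.0195). The siRNA call ended when the siRNA arrays were fitted alone (adjusted p = 0.114) and without the intensity trend (adjusted p = 0.0695). It also ended without control siRNA replicate 2 (0.28) or CTNNB1 siRNA replicate 1 (0.37). SLFN5 changed by 1.28 ± 0.13 at 6 h (adjusted p = 2.38e-07) and 1.23 ± 0.13 at 24 h (adjusted p = 2.7e-07). EPSTI1 followed PSMB9 in sign at 24 h and with siRNA. It changed by 0.49 ± 0.08 at 24 h (adjusted p = 0.000156) and by -0.80 ± 0.10 with CTNNB1 siRNA (adjusted p = 2.63e-05). The cytidine deaminase APOBEC3G changed by -0.72 ± 0.17 with CTNNB1 siRNA (adjusted p = 0.0107). That call ended when the siRNA arrays were fitted alone (adjusted p = 0.234), and without control siRNA replicate 2 (-0.52) or CTNNB1 siRNA replicate 1 (-0.68).

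**Figure D4:**
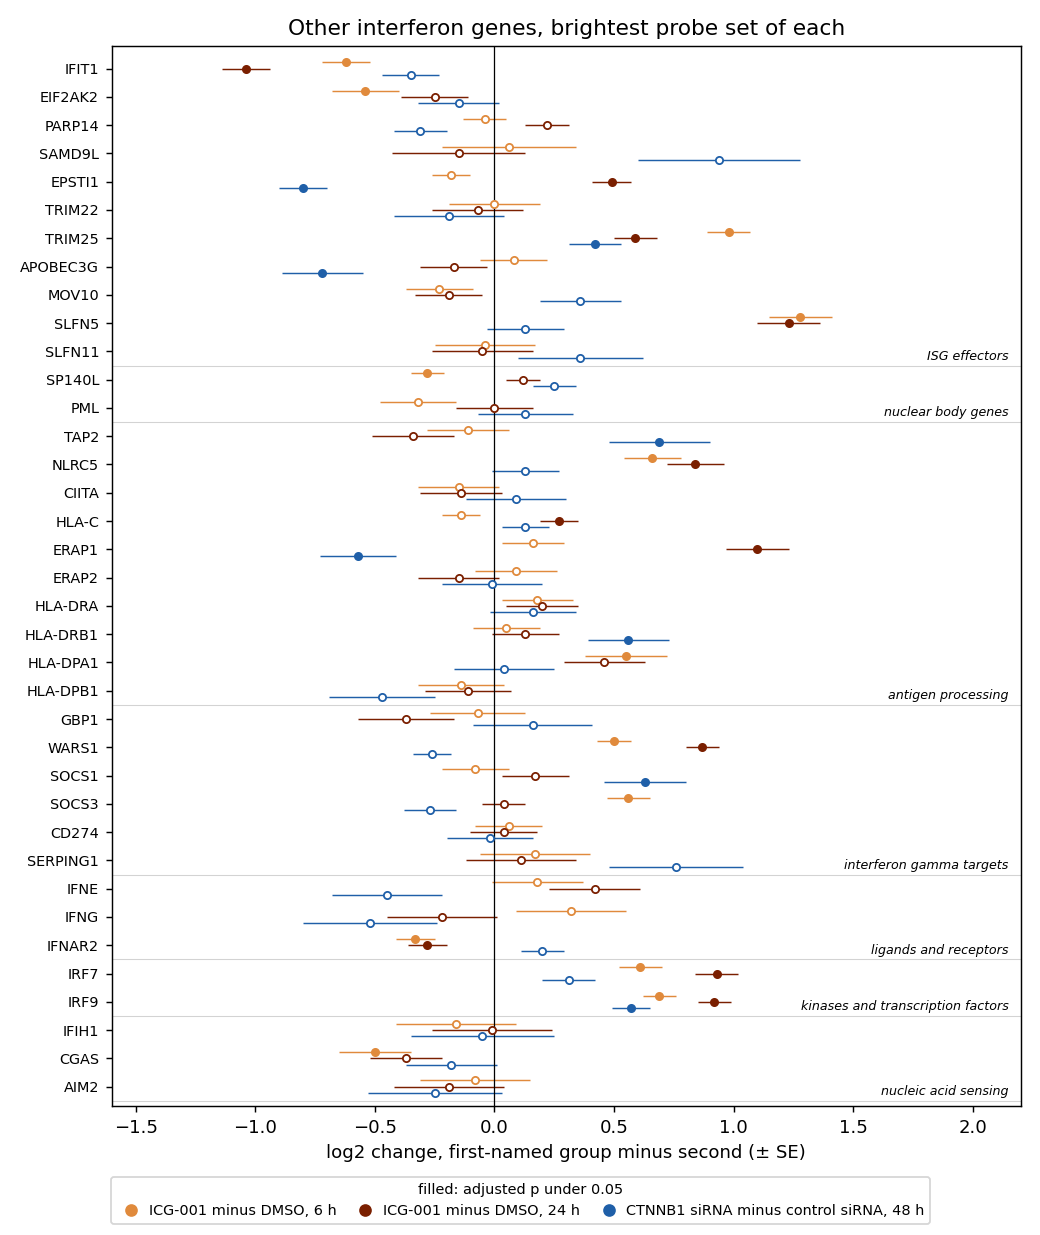
Log2 change with its SE for the brightest probe set of each of the 37 measured genes of 7 interferon lists, as ICG-001 minus DMSO at 6 h and 24 h and CTNNB1 siRNA minus control siRNA at 48 h, with filled points at an adjusted p under 0.05. IRF9 is higher in all 3 comparisons, IFIT1 is lower with ICG-001 at both times, and ERAP1 and EPSTI1 are higher with ICG-001 at 24 h and lower with CTNNB1 siRNA.

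Antigen processing is the pathway in which PSMB9 works, and 10 of its 25 other listed genes were measured. With ICG-001, 2 rose at 6 h, 3 rose at 24 h and none fell. NLRC5, the transactivator of MHC class I genes, changed by 0.66 ± 0.12 at 6 h (adjusted p = 0.000356) and 0.84 ± 0.12 at 24 h (adjusted p = 1.22e-05). ERAP1, which trims peptides in the endoplasmic reticulum, averaged 167.8 ± 18.3 with ICG-001 and 67.0 ± 11.4 with DMSO at 24 h, a change of 1.10 ± 0.13 (adjusted p = 1.59e-06). With CTNNB1 siRNA it changed by -0.57 ± 0.16 (adjusted p = 0.0292), the same pair of signs as PSMB9, but the siRNA call ended when any 1 of the 4 siRNA arrays was left out (-0.60 to -0.53). It also ended when the siRNA arrays were fitted alone (adjusted p = 0.173) and under median centring (adjusted p = 0.064).

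HLA-C changed by 0.27 ± 0.08 at 24 h (adjusted p = 0.0318) and by 0.77 under the deposited scaling (adjusted p = 9.89e-07). The first call ended without any 1 ICG-001 array of that time (0.26 to 0.27) and without DMSO 24 h replicate 1 (0.19, adjusted p = 0.207). HLA-DPA1 changed by 0.55 ± 0.17 at 6 h (adjusted p = 0.0469), a call that 11 of 26 alternatives ended. With CTNNB1 siRNA, TAP2 of the peptide transporter changed by 0.69 ± 0.21 (adjusted p = 0.0469) and HLA-DRB1 by 0.56 ± 0.17 (adjusted p = 0.0481), calls that 19 and 17 of 26 alternatives ended. HLA genes are alike in sequence, so their probe sets may read each other's transcripts. Of 17 listed subunits of the standard proteasome, 3 were measured and none was called in the 3 comparisons. PSMA3, at 0.54 ± 0.20 with ICG-001 at 24 h (adjusted p = 0.0812), passed in 7 of 26 alternatives, among them the deposited scaling (0.73, adjusted p = 0.00606), the drug arrays fitted alone (adjusted p = 0.0168) and the omission of control siRNA replicate 1 (adjusted p = 0.0162) or 2 (adjusted p = 0.0174). With CTNNB1 siRNA its difference of 0.38 ± 0.25 (adjusted p = 0.408) passed without control siRNA replicate 2 (0.87, adjusted p = 0.0302).

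Of 6 measured targets of interferon gamma, 2 rose at 6 h, 1 rose at 24 h and 1 rose with CTNNB1 siRNA. WARS1, the tryptophan tRNA ligase, averaged 2345.5 ± 28.5 with ICG-001 and 1228.7 ± 45.6 with DMSO at 6 h, and 3175.8 ± 137.9 with ICG-001 and 1214.3 ± 96.0 with DMSO at 24 h. It changed by 0.50 ± 0.07 (adjusted p = 1.2e-05) and 0.87 ± 0.07 (adjusted p = 2.61e-09), or by 0.92 and 1.38 under the deposited scaling. With CTNNB1 siRNA the WARS1 change of -0.26 ± 0.08 was not called (adjusted p = 0.0501), but it passed in 8 of 26 alternatives. SOCS3, a feedback inhibitor of JAK kinases, changed by 0.56 ± 0.09 at 6 h (adjusted p = 0.000108), and its relative SOCS1 by 0.63 ± 0.17 with CTNNB1 siRNA (adjusted p = 0.026). The SOCS1 call ended when the siRNA arrays were fitted alone (adjusted p = 0.196), without the intensity trend (adjusted p = 0.0708) and with 64 added before the log (adjusted p = 0.058). It also ended without control siRNA replicate 1 (0.40) or CTNNB1 siRNA replicate 2 (0.47).

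The closest listed relative of SP110 that was measured was SP140L. It changed by -0.28 ± 0.07 with ICG-001 at 6 h (adjusted p = 0.0149), and by -0.09 under the deposited scaling (adjusted p = 0.761). That call also ended without ICG-001 replicate 2 (adjusted p = 0.0534) or 3 (adjusted p = 0.0625), and without DMSO replicate 3 (adjusted p = 0.0671). PML, which builds nuclear bodies, was not called in the 3 comparisons. Of 3 nucleic acid sensors, CGAS changed by -0.50 ± 0.15 at 6 h (adjusted p = 0.0415), a call that 12 of 26 alternatives ended.

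Of the 15 genes listed beside SAMHD1 for dNTP supply only RRM1, the large subunit of ribonucleotide reductase, was measured. It averaged 2541.2 ± 122.4 with ICG-001 and 2661.7 ± 37.1 with DMSO at 6 h, and 987.8 ± 102.9 with ICG-001 and 2321.9 ± 67.1 with DMSO at 24 h. It changed by -0.55 ± 0.06 at 6 h (adjusted p = 2.92e-07), a call that ended under the deposited scaling (-0.07, adjusted p = 0.783), and by -1.59 ± 0.06 at 24 h (adjusted p = 3.79e-14). With CTNNB1 siRNA it changed by -0.38 ± 0.07 (adjusted p = 0.000943).

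The genes whose pattern was most like each member were ranked by Pearson's r with the brightest probe set of the member over the 16 arrays, which fall into only 6 groups. For PSMB9 they were SIX4 (0.963), NME3 (0.960), CKAP4 (0.958), HPSE (0.956) and SHH (0.950). For SAMHD1 204502_at they were BICDL2 (0.968), GNL1 (0.954), METRNL (0.952), CIRBP (0.950) and C17orf67 (0.947). For OAS2 they were NR0B2 (0.865), SAMHD1 through 235964_x_at (0.860), and TSHZ1, AKAP19 and GAS1 (0.845 each). For SP110 they were CD22 (0.988), LINC00662 (0.983), KIFC3 and ADAM8 (0.980 each) and EME2 (0.978). Over the 12 drug arrays alone, r with SP110 was 0.313 for CD22 and 0.004 for KIFC3, whereas r between OAS2 and SAMHD1 235964_x_at was 0.923.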

How the data were processed

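Per the labels' protocols, total RNA was extracted with a Qiagen kit and biotin-labelled. The authors deposited linear intensity values, 1 for each probe set on each array. How probes were summarised and arrays scaled is not given in the sources used here. All 9554 probe sets had a coefficient of variation of at least 0.40 over the 16 arrays, so the table is a selection. A platform table gave 1 gene for 6442 probe sets, several for 252 and none for 2860, and 6432 symbols were matched to current ones.

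The rule was to normalize if array medians differed by more than 0.5 (log2). They differed by 0.64, so log2(intensity + 16) was quantile normalized. One limma 3.58.1 model (R 4.3.3) with a term per group, an intensity trend and 10 residual degrees of freedom covered all 16 arrays. Tests were two-sided, adjusted by Benjamini-Hochberg over all probe sets, and checked on simulated data. The number of arrays limits the precision. The labels do not say whether same-numbered arrays were paired, and the main fit held no pairing. Deviations of same-numbered arrays from their group means correlated at -0.06 to 0.09. No shared deviation was thus seen, which cannot show that the samples were unpaired.

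Named genes were the 4 members in every probe set, up to 4 called genes per list and main comparison with the largest changes, each measured ligand, receptor, kinase and transcription factor, and the 5 most alike probe sets per member. Other genes named with values were chosen after these were seen. The members and lists were chosen with earlier results of these data known. Alternatives changed the scaling, the added number, the filter, the arrays fitted, the trend, the replicate block and single arrays.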

Additional observations from a re-analysis of the deposited data

Results flagged for a closer look

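The effect of ICG-001 differed between 24 h and 6 h for 4 of the 9 probe sets by the interaction term of the limma fit. The effect at 24 h minus that at 6 h was 0.83 ± 0.11 for PSMB9 204279_at (adjusted p = 5.94e-05). For SAMHD1 it was -1.0 ± 0.16 for 234987_at (adjusted p = 0.000306), -1.32 ± 0.19 for 235529_x_at (adjusted p = 0.000117) and -1.29 ± 0.18 for 235964_x_at (adjusted p = 0.000104). The share of all probe sets called for this difference was 5.62%.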

How the results depend on the processing

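The 7 counts of called interferon-linked probe sets were recomputed under each alternative, and no member's called change took the opposite sign under any of them. With only the brightest probe set of each gene, 1 was called at 6 h, 3 at 24 h, 1 between the DMSO times, 1 for the difference of the drug effects and 3 for drug minus siRNA. The siRNA count of 3 was 1 when its arrays were fitted alone and 1 without the intensity trend. Leaving out single arrays gave 2 to 4 at 6 h, with 2 without DMSO 6 h replicate 1, and 1 to 4 with siRNA, with 1 without control siRNA replicate 2 or CTNNB1 siRNA replicate 2. An siRNA group left with 1 array was assumed to vary like the others. The siRNA count of 8 called genes over the interferon lists was 5 under median centring, 5 with 64 added, 2 with its arrays alone and 4 without the trend, and 3 to 10 with single arrays left out, with 3 without control siRNA replicate 2 and 4 without CTNNB1 siRNA replicate 1. These list counts under alternatives were added after the data were seen. Over all 9554 probe sets, the 884 calls with siRNA were 535 under median centring and 374 with its arrays alone. The 586 between the DMSO times were 385 without the trend, and the 537 for the difference of the drug effects were 318 without it. The causes of these changes were not tested. With the replicate block, the called probe sets numbered 4 at 6 h, 7 at 24 h and 3 with siRNA, the list counts 12, 11 and 10, and no member's call changed. Intensities under the added 16 limit OAS2, SP110 on siRNA arrays and both dim SAMHD1 probe sets, whose sizes follow that number.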
